A study of Mus musculus with 4 samples.

Results

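The 9 core myelin genes *Mbp*, *Mobp*, *Mag*, *Mog*, *Cnp*, *Mal*, *Cldn11*, *Opalin* and *Ermn* were followed through the cells of the mouse hippocampus after 2-vessel occlusion (2VO), a model of brief forebrain ischemia. They were chosen by symbol as genes of the myelin sheath, 9 of the 31053 genes listed, and each had counts in all 3 libraries used. In 2VO mice both common carotid arteries were clamped for 50 min, and in sham mice the clamp was released at once. All were male C57BL/6 mice with no transgene, given as 12 weeks old by the labels and 6 to 10 weeks by the study's methods, and hippocampi were taken on day 7 with surgery on day 1. Each library is 1 mouse, and the data here are 1 2VO library (2VO 1) and 2 sham libraries (sham 1 and sham 2), since the library 2VO 2 was not analysed here. The 3′ chemistry tags every captured transcript end with a unique molecular identifier (UMI), so that a level is a count of molecules and needs no scaling by gene length. Levels are given as CPM, the UMIs of a gene scaled to a total of 1000000 UMIs in the same cells.

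Oligodendrocytes (OLGs) wrap axons in a spiral of membrane that is compacted into myelin. Their precursors (OPCs) divide, commit and then switch on the myelin genes stage by stage, under the transcription factors MYRF and SOX10. MBP seals the cytoplasmic faces of the membrane and MOBP is another basic protein of compact myelin. CNP is a phosphodiesterase of noncompact myelin that precursors already make, and MAG is the adhesion molecule of the innermost wrap, facing the axon. MOG sits on the outermost surface, CLDN11 forms the tight junctions between wraps, and MAL is a raft protein of membrane trafficking. OPALIN is a sialylated membrane glycoprotein and ERMN a cytoskeletal protein of late myelination.

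The starts of 4 members are shown because their windows hold letters bound by those factors. Each window runs from 250 bases before to 50 bases after the RefSeq start of transcription (GRCm38.p6), is written 5′ to 3′ on the strand of the gene, and has the matches in capitals. They are *Cnp* (chr11:100574689-100574988, plus strand), *Mag* (chr7:30914814-30915113, minus strand), *Opalin* (chr19:41077064-41077363, minus strand) and *Mobp* (chr9:120149492-120149791, plus strand).
Cnp: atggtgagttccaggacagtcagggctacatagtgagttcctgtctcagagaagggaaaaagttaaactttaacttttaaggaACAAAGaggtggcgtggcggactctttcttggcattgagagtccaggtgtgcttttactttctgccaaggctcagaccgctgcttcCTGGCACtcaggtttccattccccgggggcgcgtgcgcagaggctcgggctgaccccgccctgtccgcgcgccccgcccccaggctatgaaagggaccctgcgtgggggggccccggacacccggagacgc
Mag: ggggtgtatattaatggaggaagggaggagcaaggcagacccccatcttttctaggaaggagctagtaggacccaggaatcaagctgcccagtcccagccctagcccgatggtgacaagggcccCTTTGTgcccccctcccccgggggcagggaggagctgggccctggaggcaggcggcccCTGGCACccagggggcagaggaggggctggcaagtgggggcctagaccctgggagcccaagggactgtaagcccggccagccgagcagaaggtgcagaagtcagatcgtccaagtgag
Opalin: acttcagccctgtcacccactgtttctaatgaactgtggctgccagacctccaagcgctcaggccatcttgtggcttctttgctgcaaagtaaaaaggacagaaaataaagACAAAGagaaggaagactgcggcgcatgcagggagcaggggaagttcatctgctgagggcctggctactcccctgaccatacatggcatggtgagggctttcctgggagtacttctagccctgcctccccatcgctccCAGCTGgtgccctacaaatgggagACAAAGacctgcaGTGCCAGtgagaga
Mobp: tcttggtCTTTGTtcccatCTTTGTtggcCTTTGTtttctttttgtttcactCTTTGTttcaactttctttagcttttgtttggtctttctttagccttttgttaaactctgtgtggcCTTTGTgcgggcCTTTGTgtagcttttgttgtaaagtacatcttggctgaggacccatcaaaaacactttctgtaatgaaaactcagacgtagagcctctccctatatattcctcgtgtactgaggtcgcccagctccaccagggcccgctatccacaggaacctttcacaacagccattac
On either strand, the MYRF letters CTGGCAC stood in the windows of *Cnp*, *Mag* and *Opalin*, 3 of the 8 members with a window, and in 5.01% of 32851 windows of all genes. The SOX letters ACAAAG stood in *Cnp*, *Mag*, *Opalin* and 6 times in *Mobp*, 4 of 8 members, against 18.7% of all windows. The other SOX letters searched, AACAAT, stood in 0 of 8 members and 10.7% of windows, and the E-box CAGCTG in *Opalin* alone and 16.3% of windows. No match overlapped another in these windows, *Mag* has further RefSeq starts that are not shown, and a match describes the window and says nothing of binding. Transcripts that overlap a member can share its reads, and *Mobp* overlaps *Gm38642* on the same strand, while *Cnp* overlaps exons of *Dnajc7* and *Ermn* exons of *Galnt5* on the opposite strand.

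Barcodes with at least 650 detected genes numbered 3912 in 2VO 1, against 5109 in sham 1 and 5126 in sham 2, with medians of 2311, against 8191 and 5249 UMIs per cell. The 2VO library held 18754480 UMIs, against 65287386 and 40459614 in the sham libraries, and pairs of these libraries shared 12 to 15 barcodes, at most 0.253% of either. Cells were clustered without the 9 genes and named from fixed markers that also leave them out, so each name means a class that is like that cell type. The mature OLG class held 851 cells of 2VO 1, against 1532 and 1088, and its clusters carried 7 to 10 of 11 markers such as *Ugt8a*, *Aspa* and *Hapln2*. Libraries filled a class through different clusters: cluster 7, led by *C4b*, held 589 of the 851 OLGs of 2VO 1, against 17 of the 1532 of sham 1 and 71 of the 1088 of sham 2. With 1 2VO library, condition and library cannot be told apart. Within a class only the 2 sham libraries replicate each other, which leaves 1 residual degree of freedom. Each p-value rests on that spread together with the spread that the fit draws from all genes. The 2VO library is assumed to vary as the sham libraries do.

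In the sham libraries the 9 genes came on in steps along the lineage. In resting OPCs (447 cells of 2VO 1, against 599 and 296 in the sham libraries) the 9 genes summed to 2340 CPM in 2VO 1, against 3377 CPM in sham 1 and 974 CPM in sham 2. In committed OPCs, the stage marked by *Bmp4*, *Enpp6* and *Gpr17* (42, against 182 and 30 cells), the sum was 7306 CPM, against 13534 and 14386 CPM. In mature OLGs it was 23926 CPM, against 43342 and 31685 CPM. Each library thus kept the same order of stages, and at the 2 later stages 2VO 1 had the lowest sum of the 3 libraries.

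The committed stage split the members into early and late genes. *Mbp* stood at 2481 CPM there in 2VO 1, against 4864 and 4042 CPM in sham 1 and sham 2. *Cnp* was at 2515 CPM, against 4264 and 4646 CPM. *Mag* was at 1200 CPM, against 2162 and 1737 CPM. In the sham libraries *Mbp* was thus as high in committed OPCs as in mature OLGs, where it had 4663 and 3712 CPM, while *Cnp* was still below its 6308 and 5488 CPM of that stage and *Mag* below its 4715 and 3023 CPM. *Cldn11*, at 647 CPM in 2VO 1, against 1274 and 969 CPM, was the fourth early member. The late members were *Mal*, *Mog*, *Mobp*, *Ermn* and *Opalin*. *Mog*, the gene of the outer surface, had 143 CPM in committed OPCs of 2VO 1, against 218 and 454 CPM, and 1442 CPM in mature OLGs, against 3204 and 2348 CPM. *Ermn* had 68.2 CPM in committed OPCs, against 33.5 and 190 CPM, and 1464 CPM in mature OLGs, against 2105 and 2146 CPM. *Opalin* had 40.9 CPM in committed OPCs, against 30.0 and 131 CPM, and 739 CPM in mature OLGs, against 1322 and 1500 CPM. *Mobp* had 68.2 CPM in committed OPCs, against 504 and 344 CPM. *Mal* was the gene on which the sham libraries disagreed most at this stage, with 143 CPM in 2VO 1, against 185 and 1874 CPM.

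**Figure D1:**
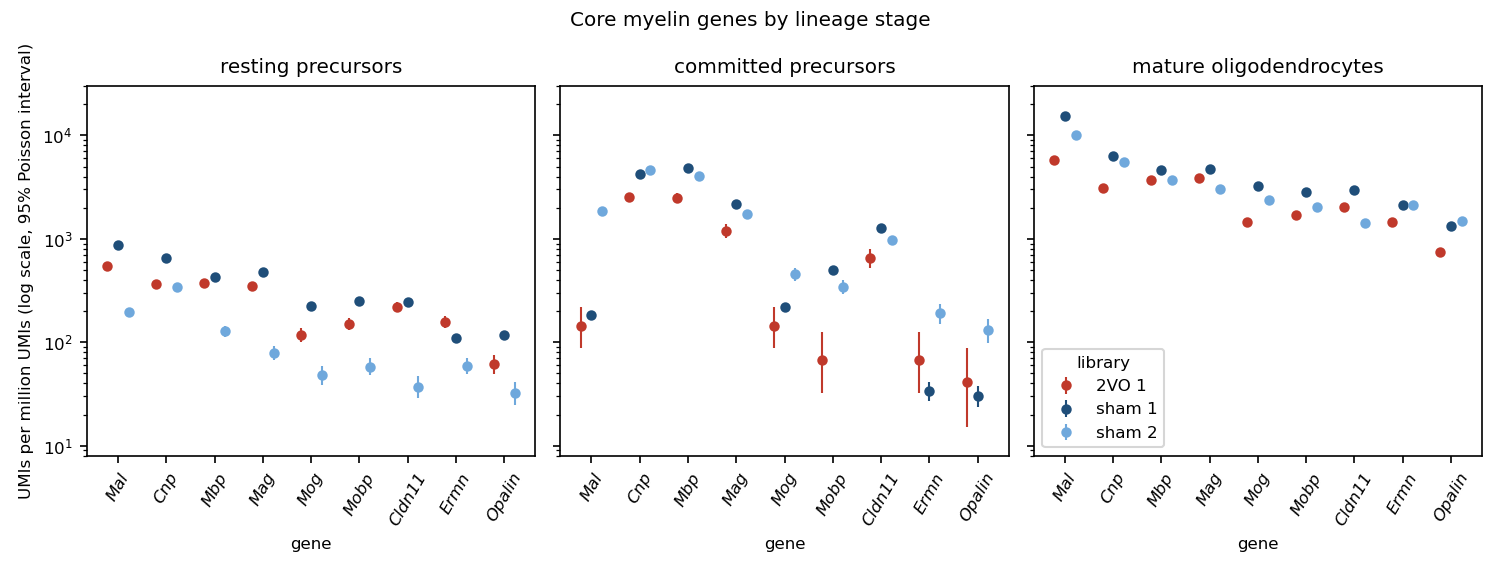
Level in CPM (log scale, 95% Poisson interval) of each member in resting precursors, committed precursors and mature oligodendrocytes, by library. *Cnp*, *Mbp* and *Mag* are above 1000 in the committed stage of every library, while *Ermn* and *Opalin* stay below 200 there and pass 700 in mature cells.

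As shares of the 9-gene sum, the early members carried the committed stage. *Mbp* took 33.96% of it in 2VO 1, against 35.9% and 28.1%, and *Cnp* took 34.4%, against 31.5% and 32.3%. In mature OLGs *Mal* took the largest share, 24.4% in 2VO 1, against 35.2% and 31.7%. *Mag* took 16.4% in 2VO 1, against 10.9% and 9.54%, so that the make-up of the sum in mature OLGs of 2VO 1 leaned to *Mag* and away from *Mal*. No test was made of the shares.

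**Figure D2:**
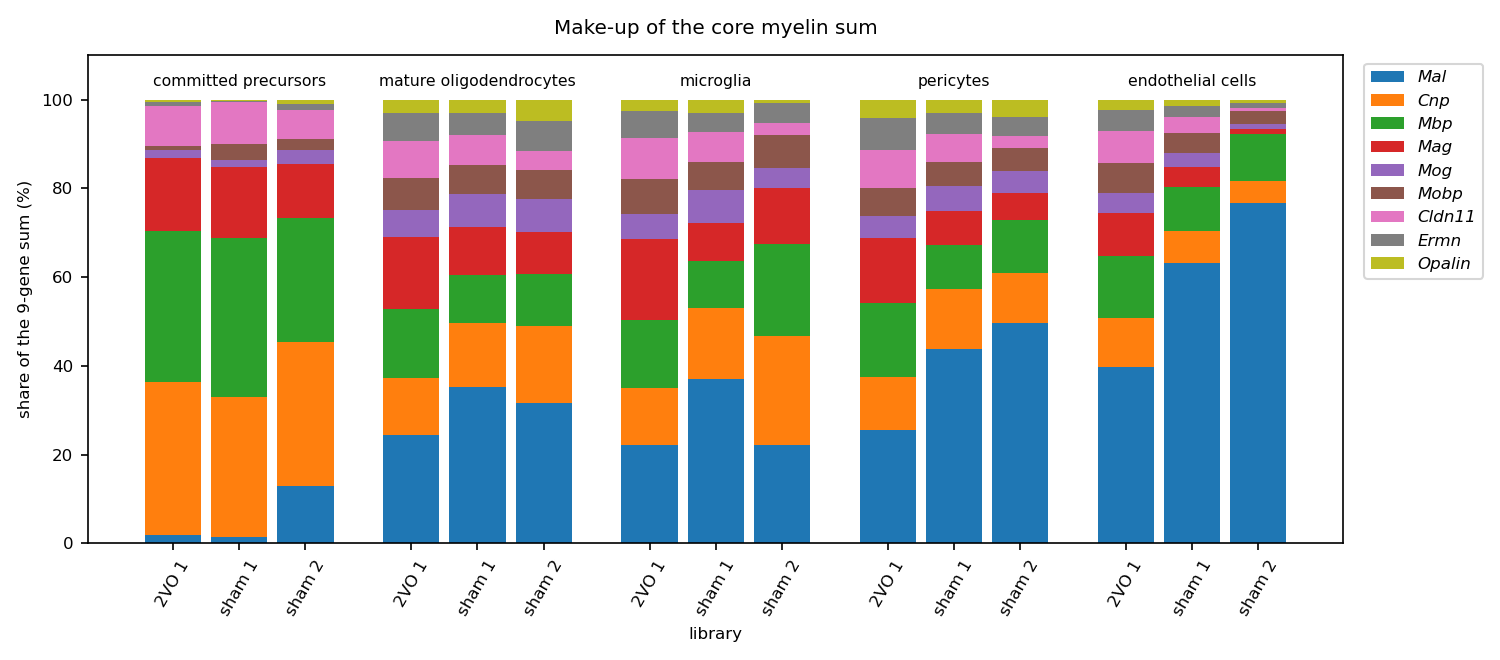
Share of each member in the UMIs of the 9 genes (%), by class and library. *Mal* makes up 24.4% of the sum in mature oligodendrocytes of 2VO 1 and 35.2% and 31.7% in the sham libraries, and 39.8% in endothelial cells of 2VO 1, against 63.1% and 76.6%.

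Whether mature OLGs of the 2VO mouse held fewer myelin transcripts was tested gene by gene. In values, 7 of the 9 members lay below both sham libraries in 2VO 1, where 42.9% of all genes tested did so. *Mal* had 5828 CPM in 2VO 1, against 15242 and 10045 CPM, *Cnp* 3086 CPM, against 6308 and 5488 CPM, and *Mobp* 1714 CPM, against 2833 and 2015 CPM. *Mbp*, at 3702 CPM, lay just below the 4663 and 3712 CPM of the sham libraries. For *Mag*, with 3913 CPM in 2VO 1, against 4715 and 3023 CPM, and *Cldn11*, with 2037 CPM, against 2949 and 1408 CPM, the groups overlapped.

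In edgeR's quasi-likelihood test on counts summed per library, 0 of 9 members passed an adjusted p of 0.05 with a fold over 1.5, and 0% of the 12518 genes tested did so in either direction. *Opalin* had the smallest p, with a log2 fold change of -1.32 (SE 0.210, adjusted p = 0.0573 by edgeR). *Cnp* followed at -1.32 (SE 0.253, adjusted p = 0.0596 by edgeR), and then *Ermn* at -0.93 (SE 0.205, adjusted p = 0.0671 by edgeR). *Mog* stood at -1.34 (SE 0.301, adjusted p = 0.0682 by edgeR) and *Mal* at -1.51 (SE 0.377, adjusted p = 0.0789 by edgeR). Many genes outside the list had adjusted p-values of the same size. *Mobp* was at -0.89 (SE 0.306), *Mbp* at -0.57 (SE 0.266), *Cldn11* at -0.49 (SE 0.498) and *Mag* at -0.38 (SE 0.353), with adjusted p of 0.13 to 0.535 in the same edgeR fit. The median of the 9 was -0.93, and that of all genes tested was -0.0064. At an unadjusted p under 0.05 there were 6 members and 4107 genes, 32.8% of those tested. DESeq2's Wald test on the same sums called 6 members lower, where it called 7.96% of all genes lower, so the call depends on the tool. It also depended on which cells and clusters were taken: 5 members were called lower from barcodes with at least 200 genes (8.27% of all genes), 4 after clustering with the members (9.57%), 3 at a finer resolution (8.87%), 2 without cells of high doublet score (7.66%), 5 after thinning (13.8%) and 7 with no filter on low counts (12.9%). Without sham 1, *Mag* stood at 0.04 and *Cldn11* at 0.20, above 0, and the other 7 members kept their direction without either sham library.

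**Figure D3:**
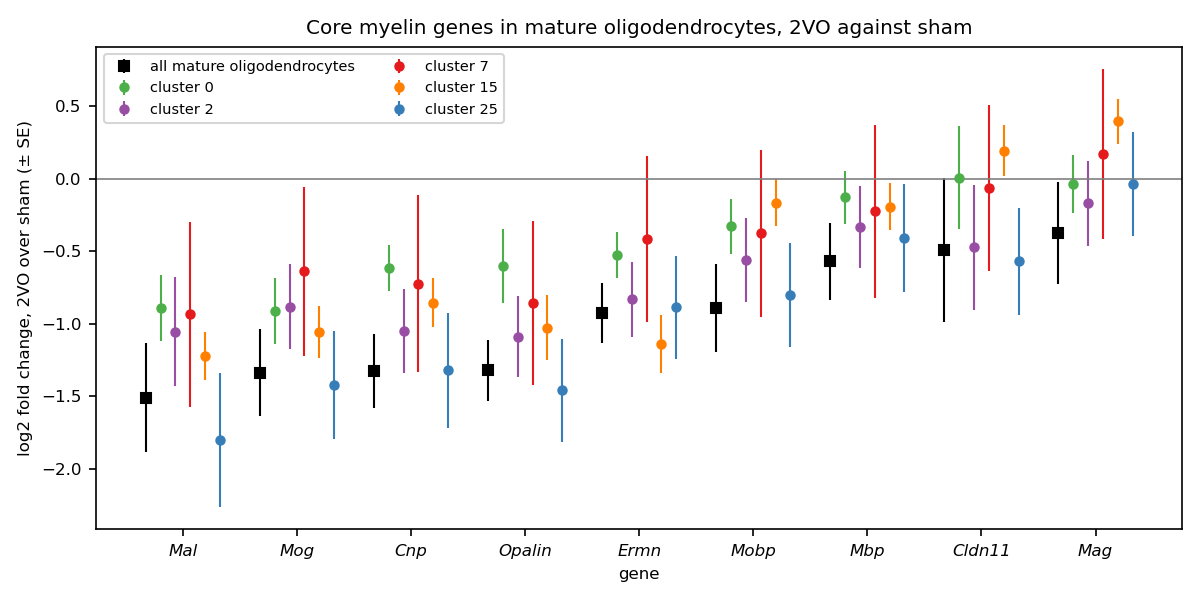
Log2 fold change of each member, 2VO over sham, with its standard error, in all mature oligodendrocytes (squares) and in their 5 clusters (circles). All members but *Mag* and *Cldn11* lie below 0 in every cluster, and *Mag* is at -0.38 over all cells and at 0.39 in cluster 15.

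Within single clusters of OLGs the same split of the members returned. In cluster 15, the cluster of highest *Mal* and *Cnp* (20 cells of 2VO 1, against 282 and 36), *Mal* had 9553 CPM in 2VO 1, against 18453 and 20191 CPM, and *Cnp* 5340 CPM, against 8035 and 8705 CPM. *Mag* had 10453 CPM there in 2VO 1, against 7457 and 6353 CPM, above both sham libraries. By edgeR 5 members fell, namely *Mal* (log2 fold change -1.22), *Ermn* (-1.14), *Mog* (-1.06), *Opalin* (-1.03) and *Cnp* (-0.85), where 7.12% of all genes were called lower and 2.76% higher. *Mag* stood at 0.39 and *Cldn11* at 0.19 in that cluster and neither passed. In cluster 25, led by *C4b* and *Klk6* (99 cells, against 15 and 35), 4 members fell, *Mal* by 1.80, *Opalin* by 1.46, *Mog* by 1.42 and *Cnp* by 1.32 on the log2 scale, where 5.25% of all genes were called lower and 4.39% higher. In clusters 0, 2 and 7 no member passed, and 0%, 0% and 0.0614% of all genes were called lower there and 0%, 0.00996% and 0.491% higher. *Mal*, *Mog*, *Cnp*, *Opalin*, *Ermn* and *Mobp* were below both sham libraries in all 5 clusters, where 45.5%, 50%, 32.1%, 49.9% and 40.4% of all genes were in clusters 0, 2, 7, 15 and 25. In cluster 25 *Mal* stood at -1.21 without sham 1. DESeq2 called the same 5 members lower in cluster 15 (2.36% of all genes), *Mal* alone in cluster 25 (0.0636%), and *Mal*, *Cnp* and *Opalin* in cluster 2 (0.428%).

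Other genes of myelin and of the lineage were read in the same edgeR fit of mature OLGs, where none of any list passed. DESeq2's test called 5 lipid enzymes lower and 1 higher, 5 of the other myelin and axoglial proteins lower, 2 transcription factors lower and 1 secreted or transport gene lower. It called 7.96% of all genes lower and 1.38% higher. The 13 myelin lipid enzymes had a median log2 fold change of -0.73 and the 19 other myelin and axoglial proteins one of -0.40. The 11 lineage transcription factors, which include *Olig2*, *Sox10* and *Myrf*, had a median of 0.10, and the 9 secreted and transport genes one of -0.16, beside -0.0064 for all genes. The medians of the 9 core genes and of the lipid enzymes were thus the lowest of these 5 lists. The 11 precursor genes had a median log2 fold change of 2.71, with 247 CPM in 2VO 1, against 168 and 143 CPM. Transcripts of other cell types moved in the same cells of 2VO 1. DESeq2's test called 3 of 9 microglial, 1 of 6 endothelial and 1 of 5 choroid plexus transcripts higher, with 1 of 9 dissociation and stress genes. The 5 endothelial markers summed to 868 CPM in mature OLGs of 2VO 1, against 52.0 and 215 CPM, the 5 microglial markers to 326 CPM, against 73.8 and 90.1 CPM, and the 4 choroid plexus markers to 2854 CPM, against 909 and 798 CPM. The 9 dissociation and stress genes, such as immediate early genes, summed to 8090 CPM, against 2420 and 3852 CPM. All of these markers were above 0 in every library, and their part in the values of the 9 genes was not tested.

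In summed counts, resting OPCs showed the members going in opposite directions by cluster. Over all resting OPCs 0 of 9 members were called by edgeR or DESeq2 and 2 had an unadjusted p under 0.05 in edgeR, as 43.9% of all genes did, where 12.8% of all genes were called higher and 20.6% lower. In cluster 4, led by *Cdo1* and *C1ql1* and holding most resting OPCs of the sham libraries (61 cells of 2VO 1, against 550 and 258), all 9 members lay above both sham libraries in 2VO 1, against 39.5% of all genes. *Opalin* passed the low-count filter there through 2VO 1 alone, so its place was set by the filter and carries no weight. *Mal* had 125 CPM in 2VO 1, against 32.2 and 22.1 CPM, and *Ermn* 68.4 CPM, against 7.58 and 7.55 CPM. *Ermn* (log2 fold change 3.13, SE 0.472, adjusted p = 0.0166 by edgeR) and *Mal* (2.11, SE 0.312, adjusted p = 0.0162 by edgeR) rose, where 0.13% of all genes were called higher and 0.00867% lower. *Ermn* rests there on 23 UMIs of 2VO 1, against 29 and 13. *Cnp*, which precursors make themselves, was at 282 CPM in 2VO 1, against 239 and 262 CPM, with a log2 fold change of 0.14. DESeq2 called no member in this cluster.

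Cluster 14 (386 cells of 2VO 1, against 49 and 38) held most resting OPCs of the 2VO library, and there the 9 genes summed to 2803 CPM in 2VO 1, against 22830 and 5395 CPM. All 9 lay below both sham libraries, where 36% of all genes did. *Opalin* (log2 fold change -3.15), *Mog* (-3.05), *Mal* (-2.82), *Mobp* (-2.79) and *Cnp* (-2.69) were called lower on these sums by edgeR, where 0.993% of all genes were called lower and 0.808% higher. Cell by cell the 9-gene level did not fall in the same way. The median over cells of 2VO 1 was above both sham libraries (log2 difference 1.11), as was the share of thinned cells with a UMI (0.27). The mean of cells scaled to the same total (-1.08) and the mean after thinning (-1.14) lay between the sham libraries. The sham values there rest on 49 and 38 cells, and without sham 1 the median log2 fold change of the 9 was -1.34, against -2.69 with both sham libraries. Without it *Opalin* stood at -1.91, *Mog* at -1.57, *Cnp* at -1.38, *Mobp* at -1.34 and *Mal* at -1.30, and DESeq2, with both sham libraries, called *Opalin* alone, and 0.133% of all genes lower. Removing the 5% of cells of highest doublet score took 67.3% and 66.6% of the 9-gene UMIs out of the resting OPCs of sham 1 and sham 2, and 43.8% in 2VO 1. In committed OPCs 7 members were below both sham libraries, where 44.2% of all genes were, and 0 of 9 passed edgeR's test, as did 0% of all genes. At an unadjusted p under 0.05 there were 5, as 19.6% of all genes, and DESeq2 called *Mobp* lower, as it did 0.52% of all genes.

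Cells that make no myelin also held counts of the 9 genes, and more of them did so in the 2VO library. After each cell was thinned to 1000 UMIs, so that depth was equal, 72.7% of microglia of 2VO 1 held a UMI of at least 1 of the 9 genes (95% Clopper-Pearson interval 67.9% to 77.2%), against 30.8% (24.7% to 37.5%) in sham 1 and 23.5% (17.9% to 30.0%) in sham 2. In pericytes the share was 71.3% in 2VO 1, against 36.2% and 27.7%, and in vascular smooth muscle cells 46.8%, against 18.2% and 15.4%. In immature neurons it was 76.9%, against 22.4% and 12.7%. Choroid plexus epithelial cells, which lie apart from myelin in the ventricles, had 37.9%, against 16.3% and 16.6%. The share of 2VO 1 was above both sham libraries in 12 of 12 classes and its interval lay clear of both in 7, namely microglia, endothelial cells, pericytes, vascular smooth muscle cells, choroid plexus epithelial cells, immature neurons and Cajal-Retzius neurons. The intervals cover counting error only, and cells of 1 library are not replicates. Without thinning, at unequal depth, the share in microglia was 88.0% in 2VO 1, against 79.1% and 59.3%, with medians of 1815, against 4835 and 4236 UMIs per cell.

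**Figure D4:**
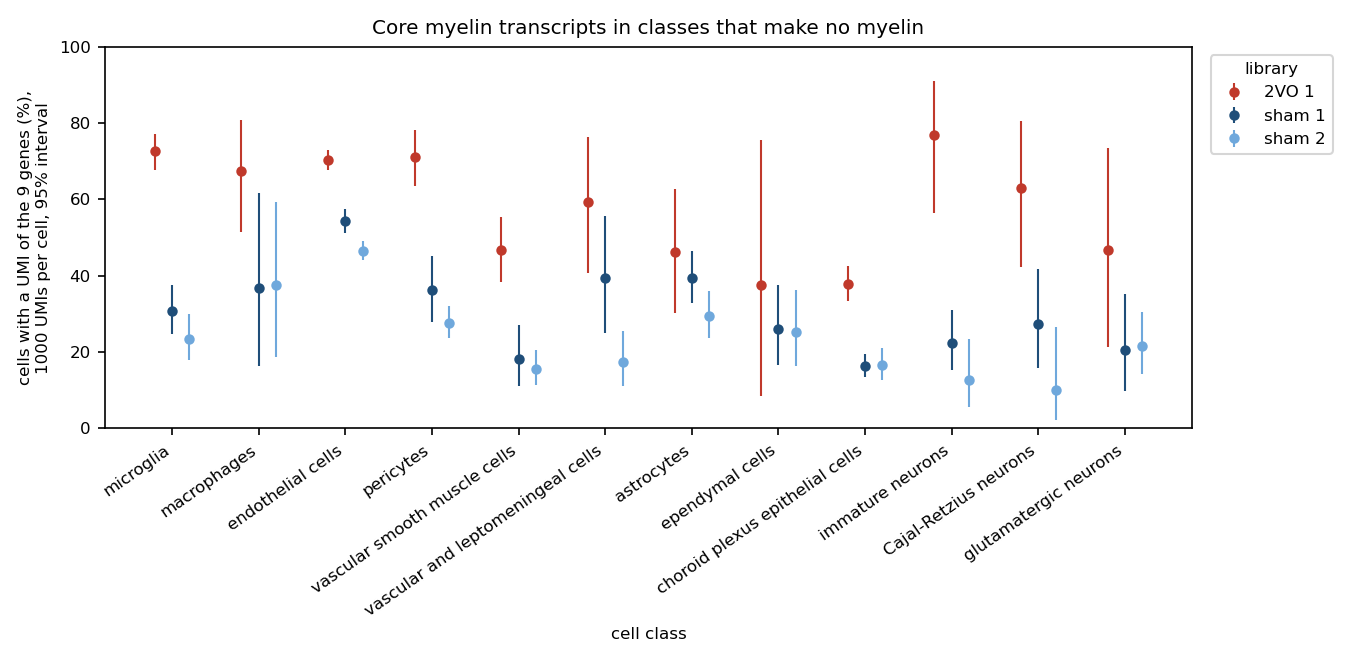
Share of cells with at least 1 UMI of the 9 genes after thinning to 1000 UMIs per cell (%, 95% Clopper-Pearson interval), by class that makes no myelin and by library. 2VO 1 is the highest library in all 12 classes, at 72.7% in microglia, against 30.8% and 23.5%.

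Shares in the lineage are given beside those in choroid plexus cells, which make no myelin. In resting OPCs *Cnp* was found after thinning in 26.4% of cells of 2VO 1, against 22.1% and 18.8%, while in choroid plexus cells it was found in 10.8%, against 5.08% and 4.46%. The median depths were 2634, against 7036 and 6837 UMIs per resting OPC, and 7502, against 39231 and 28702 UMIs per choroid plexus cell. *Cnp* therefore stood above the choroid plexus share in resting OPCs of every library. *Opalin*, a late gene, was found in 3.91% of resting OPCs, against 2.70% and 1.02%, and in 2.69% of choroid plexus cells, against 1.19% and 0.955%. In committed OPCs *Cnp* was found in 82.5%, against 92.2% and 96.7%.

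*Mal* in endothelial cells (ECs) stood apart from the other members of that class. It was found after thinning in 41.7% of ECs of 2VO 1, against 43.6% and 38.1%, a share far above the 13.0%, against 3.73% and 3.18%, of choroid plexus cells. Its level was 733 CPM in ECs of 2VO 1, against 814 and 547 CPM, so that the groups overlapped. *Mal* was highest in cluster 13, the EC cluster led by *Gkn3* and *Bmx*, genes of arterial endothelium, with 968 CPM in 2VO 1, against 1079 and 841 CPM. It made up 39.8% of the 9-gene UMIs of ECs in 2VO 1, against 63.1% and 76.6%. The other 8 members were all above both sham libraries in ECs of 2VO 1, where 39.6% of all genes were. *Mbp* had 258 CPM, against 128 and 76.3 CPM, and *Mag* 179 CPM, against 58.3 and 7.59 CPM. Their log2 fold changes ran from 1.21 for *Mbp* to 2.39 for *Mag*, and none passed edgeR's test, which called 1.92% of all genes higher and 0.365% lower in ECs. The median of the 9 was 1.71, and it was 2.74 without sham 1 and 1.05 without sham 2. *Cldn11*, which cells of the meninges also make, had 456 CPM in vascular and leptomeningeal cells (VLMCs) of 2VO 1, against 189 and 134 CPM.

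Summed levels told of a difference in fewer classes than the shares of cells. The 9-gene sum of 2VO 1 was above both sham libraries in 7 of 12 classes, and in 12 of 12 by the median over cells, by the mean of cells scaled to the same total, or after thinning. In microglia the sum was 4317 CPM in 2VO 1, against 4392 and 520 CPM, and in pericytes 3613 CPM, against 6075 and 1109 CPM. The median microglial cell held 1414 CPM in 2VO 1, against 308 and 208 CPM. In microglia of 2VO 1 the top 5% of cells held 46.2% of the 9-gene UMIs, against 92.6% in sham 1 and 62.4% in sham 2, and in pericytes 49.8%, against 93.7% and 75.9%. In microglia and pericytes of the sham libraries a few cells thus carried most of the counts, and in 2VO 1 they were spread over more cells.

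Of the members tested in 11 such classes, 19 were called higher in 2VO 1 and none lower by edgeR, while DESeq2's test on the same sums called 0 of them. In macrophages (43 cells, against 19 and 24) 7 of 8 tested members were called higher, where 5.09% of all genes were called higher and 0.721% lower. *Mal* had 481 CPM there in 2VO 1, against 86.0 and 9.31 CPM (log2 fold change 3.54, SE 0.599). *Mbp* had 467 CPM, against 172 and 46.6 CPM (log2 fold change 2.23, SE 0.527). Several rest on very few sham UMIs: *Mag* had 66 UMIs in 2VO 1, against 3 in both sham libraries together, a ratio of 27.6 (95% counting interval 9.04 to 137). *Cldn11* had 24 UMIs, against 1, a ratio of 30.1 (4.91 to 1238), and *Ermn* 23 UMIs, against 1, a ratio of 28.9 (4.69 to 1189). *Mog*, the tested member that did not pass, had 21 UMIs, against 2, a ratio of 13.2 (3.22 to 116). The fitted fold changes of such genes depend on the prior count. Of the 8, only *Cnp* and *Mbp* passed the low-count filter through a sham library as well. The other 6 were tested because they were high in 2VO 1, so their calls carry no weight. The 6 endothelial transcripts were called higher in the same cells, with a median log2 fold change of 6.91. Endothelial markers summed there to less than the filter's limit of 93.1 CPM per gene in both sham libraries. Such transcripts could pass through 2VO 1 alone, and calls of that kind carry no weight. With barcodes of at least 200 genes the median of the tested members was 0.61, against 3.56 in the main comparison. Without sham 1 the log2 fold change of *Mal* in macrophages was 5.38 and that of *Mobp* 6.67, and without sham 2 they were 2.47 and 1.51, with 2.80 for *Mobp* with both sham libraries. *Mbp* stood at 3.24 without sham 1 and at 1.45 without sham 2, and *Cnp*, called at 1.69, at 1.24 and 2.45.

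In VLMCs (32 cells, against 44 and 120) 6 members rose, where 1.2% of all genes were called higher and 0.0611% lower. *Mag* had 520 CPM there in 2VO 1, against 15.3 and 66.8 CPM, with a log2 fold change of 3.40 (SE 0.453) and of 2.87 to 5.12 without one of the sham libraries. *Mal*, *Ermn*, *Mobp*, *Mbp* and *Cldn11* were called at 1.57 to 2.01, and without sham 2 *Mal* stood at 3.04, *Ermn* at 3.75 and *Mobp* at 2.84. Of 6 endothelial transcripts 3 were called higher there, with a median of 1.53, and their part in the result was not tested. In glutamatergic neurons (15 cells, against 48 and 108) *Mal* (2.96), *Ermn* (2.35) and *Cnp* (2.16) rose, and *Cldn11* (2.79), which passed the low-count filter through 2VO 1 alone, was also called, where 1.14% of all genes were called higher and 0.487% lower. *Mal* had 584 CPM in these neurons of 2VO 1, against 23.3 and 90.5 CPM, from 60 UMIs in 2VO 1, and it stood at 4.59 without sham 2, as *Cnp* did at 3.73. Without sham 1 *Mal* stood at 2.37, *Ermn* at 1.77 and *Cnp* at 1.61. *Mbp*, the most abundant member in neurons of the sham libraries, was at 224 CPM, against 127 and 161 CPM, with a log2 fold change of 0.38 that did not pass. In the same 15 cells 5 of 6 endothelial transcripts (median 3.34) and 5 of 9 dissociation and stress genes (median 2.18) were called higher. With barcodes of at least 200 genes the median of the members was -0.45 and 8 of 9 lay below 0. In immature neurons (28 cells, against 125 and 64) *Mbp* (1.06) and *Mag* (0.83) rose, where 3.45% of all genes were called higher and 7.54% lower. *Mbp* had 853 CPM there in 2VO 1, against 453 and 171 CPM, and *Mag* 733 CPM, against 518 and 104 CPM. Without sham 1 *Mag* stood at 2.73 and *Mbp* at 2.24, and without sham 2 at 0.27 and 0.68. With them 3 of 4 tested endothelial transcripts (median 2.89), 2 of 2 choroid plexus transcripts (median 2.25) and 3 of 9 stress genes were called higher. When cells were clustered with the members the median of the 9 was -0.80, and 7 lay below 0.

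In microglia *Mag* had 792 CPM in 2VO 1, against 372 and 66.0 CPM, *Mbp* 654 CPM, against 468 and 107 CPM, and *Cldn11* 396 CPM, against 292 and 13.7 CPM. With *Mobp* and *Ermn* these were the 5 members above both sham libraries there, where 40.9% of all genes were. For *Mal*, with 953 CPM, against 1632 and 115 CPM, and for *Cnp*, *Mog* and *Opalin* the level of 2VO 1 was between those of sham 1 and sham 2. In pericytes *Mag* had 525 CPM, against 464 and 68.0 CPM, and *Mbp* 610 CPM, against 600 and 132 CPM, while *Mal* had 919 CPM, against 2663 and 550 CPM. In vascular smooth muscle cells *Mag* had 313 CPM, against 211 and 89.6 CPM, and *Mal* 510 CPM, against 674 and 346 CPM. In all 3 classes *Mal* of 2VO 1 lay between the sham libraries. In choroid plexus cells no member was above 63.5 CPM in 2VO 1 or 95.4 CPM in a sham library.

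No member was called by edgeR in microglia, pericytes, vascular smooth muscle cells, choroid plexus cells, astrocytes or Cajal-Retzius neurons, where 3.63%, 0%, 0.241%, 2.67%, 0.0567% and 0.585% of all genes were called higher. Called lower were 2.24%, 0%, 0%, 6.19%, 0.0378% and 0.312% of all genes in the same classes. At an unadjusted p under 0.05 there were 5 members in astrocytes, 4 in Cajal-Retzius neurons, 2 in vascular smooth muscle cells, 1 each in microglia and choroid plexus cells and 0 in pericytes. The shares of all genes at that p were 14.5%, 20.2%, 13.9%, 25.4%, 21.9% and 14.5% in the same order. Ependymal cells, with 9 cells in 2VO 1, were not tested. In astrocytes the 9-gene sum was 1062 CPM in 2VO 1, against 1764 and 1614 CPM, and 7 members lay below both sham libraries, where 46.7% of all genes did. Astrocytes were the only one of the 12 classes whose sum lay below both sham libraries, while 46.2% of their thinned cells held a UMI of the 9 genes, against 39.5% and 29.6%.

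Cells of high doublet score held much of the myelin signal in some classes outside the lineage in the sham libraries. Scrublet scores each cell against simulated mixtures, and since its automatic threshold marked 1 cell of 2VO 1, against 102 and 132 of the sham libraries, the 5% of cells of highest score were removed from each library and the rest clustered anew. The 5% limit was chosen after seeing the data. Unlike the clustering, the score did not leave out the 9 genes, so the removal acted in part on the counts compared. In microglia these were 8 of 383 cells of 2VO 1 with 7.22% of the 9-gene UMIs, against 16 of 215 cells with 84.8% in sham 1 and 11 of 204 with 7.66% in sham 2. In pericytes they held 3.34%, against 93.8% and 67.3%, and in vascular smooth muscle cells 28.3%, against 93.2% and 92.7%. In ECs they held 20.7%, against 22.1% and 2.36%, and in macrophages 0%, against 35.5% and 4.17%. Removal was uneven, and outside the lineage it took no cell of 2VO 1 from macrophages, VLMCs, ependymal cells, or glutamatergic, immature or Cajal-Retzius neurons. In VLMCs the removed cells held 0% of the 9-gene UMIs in 2VO 1, against 43.1% and 80.9%.

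After the removal the 9-gene sum of 2VO 1 was above both sham libraries in 12 of 12 classes. Since the score did not leave out the 9 genes, values and calls after removal describe this setting and give no separate support. In microglia it was then 4133 CPM, against 800 and 505 CPM, in pericytes 3781 CPM, against 553 and 424 CPM, and in vascular smooth muscle cells 1778 CPM, against 169 and 105 CPM. In astrocytes, the class with the reverse order before, the 9-gene sum was 815 CPM, against 518 and 389 CPM. All 9 members were then called higher by edgeR in microglia and in vascular smooth muscle cells, where 12.4% and 1.89% of all genes were. In ECs and in pericytes 8 of 9 were called higher, where 4.04% and 0.751% of all genes were, though 4 of the 8 in pericytes and 4 of the 9 in smooth muscle cells passed the low-count filter through 2VO 1 alone. *Mal* was the member that did not pass in ECs or in pericytes. In resting OPCs 8 of 9 were called higher, where 12.2% of all genes were, and there *Cnp* did not pass. *Opalin* was among the 8, but it passed the low-count filter there through 2VO 1 alone. In committed OPCs 4 members were then lower, *Mal*, *Mobp*, *Cnp* and *Mbp*, where 3.85% of all genes were.

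**Figure D5:**
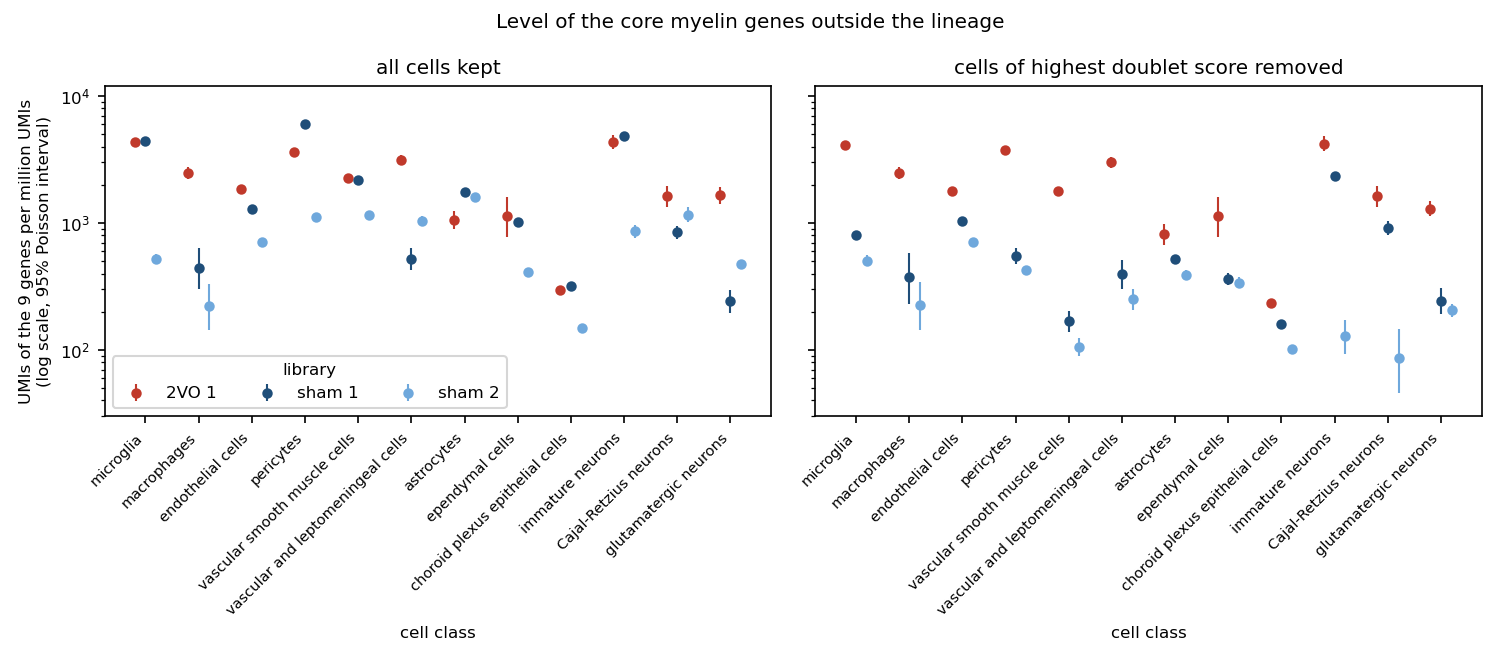
Summed level of the 9 genes in CPM (log scale, 95% Poisson interval) by class that makes no myelin and by library, with all cells kept (left) and with the 5% of cells of highest doublet score removed from each library (right). The microglia of 2VO 1, sham 1 and sham 2 are at 4317, 4392 and 520 on the left and at 4133, 800 and 505 on the right.

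Over whole libraries, mature OLGs held 69.1% of all UMIs of the 9 genes in 2VO 1, against 91.7% and 92.1% in the sham libraries, although they were 21.8% of the cells, against 30.0% and 21.2%. ECs held 6.99% of the 9-gene UMIs, against 0.513% and 1.31%, and microglia 4.65%, against 0.479% and 0.138%. Barcodes with fewer than 650 genes held 5.95%, against 0.222% and 0.582%.

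The mix of the 9 genes in other cells was compared with that of the OLGs of each library, as the percentage points of the sum that would have to move between members to match them. Microglia of 2VO 1 were 3.70 points from OLGs of the same library, and 17.0 and 18.6 points from OLGs of sham 1 and sham 2. Microglia of sham 1 were 3.43 points from OLGs of sham 1 and 17.3 points from OLGs of 2VO 1. Microglia of sham 2, with 457 UMIs of the 9 genes, were 20.5 points from OLGs of sham 2. *Mag* made up 18.4% of the sum in microglia of 2VO 1, against 8.47% and 12.7%, the direction it also took in OLGs. Of the 12 classes, the mix was nearest to the OLGs of the same library in 9 for 2VO 1, against 6 for sham 1 and 7 for sham 2. The exceptions of 2VO 1 were ECs, glutamatergic neurons and ependymal cells. Markers of mature OLGs outside the 9 genes moved with them. The 11 markers summed to 4322 CPM in microglia of 2VO 1, against 2621 and 767 CPM, to 1623 CPM in ECs, against 695 and 417 CPM, and to 2910 CPM in macrophages, against 1003 and 726 CPM. Endothelial markers in macrophages summed to 3045 CPM in 2VO 1, against 28.7 and 65.2 CPM. The part of mixed or free RNA in these values was not tested beyond the counts given.

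Over 48 sums of class and library, each member followed the mean of the other 8 on the log2(CPM + 1) scale, with Pearson's r of 0.854 for *Cnp*, the lowest, to 0.930 for *Mobp*. Of 17008 genes, *Qdpr* (r = 0.923), *Tmem88b* (0.902) and *Tspan2* (0.897) were among the 5 most like the mean of the 9. *Tspan2* encodes a tetraspanin of myelin. The sums share libraries and depth, so these values describe a likeness in this data and are given without a test.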

How the data were processed

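Hippocampal cells were profiled by 10x 3′ single-cell RNA-seq, 1 library per mouse. Reads were mapped to mm10 (GRCm38) in Cell Ranger by the authors, whose deposited values are raw UMI counts per gene and barcode, and their notes name Seurat 3.2.2. The labels give dissociation at 37 °C and the methods 34 °C. From the deposited counts, barcodes with at least 650 genes were kept, normalised, clustered with scanpy 1.11.5 and leidenalg 0.10.2 (2000 variable genes without the 9 members, 30 components, 15 neighbours, resolution 1.0) and named where at least 3 fixed markers were found in 10% of the cells. Doublets were kept in the main results. The 2VO 2 library was not analysed here.

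UMIs were summed by class and library where each library had at least 10 cells, and 2VO was compared with sham by edgeR 4.0.16 (quasi-likelihood, TMM, R 4.3.3, Benjamini-Hochberg over all genes tested). Low counts were removed by filterByExpr, which a gene can pass through 1 library. A call needs an adjusted p of 0.05 and a fold of 1.5. DESeq2 1.42.0 was an alternative, as were no low-count filter, other cell filters and clusterings, thinning to 1000 UMIs per cell and leaving out each sham library. Classes differ in which clusters fill them by library. Poisson and Clopper-Pearson intervals (95%) cover counting error only. The scripts were tested on simulated data. P-values measure only the spread between these libraries, which the fits draw in part from all genes.

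The members and gene lists were chosen with earlier results of these data known. The rule for named genes takes all 9 members in every class, given singly or by range, count and sum, up to 3 genes of smallest p per direction among those of another list called in mature OLGs, of which there were none, and the 5 genes most correlated with the mean of the members, 2 of which are not reported here. Promoter windows are RefSeq, build GRCm38.p6, and overlaps are from the gene annotation of that build.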

Additional observations from a re-analysis of the deposited data

Results flagged for a closer look

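The 2VO difference in other cells was compared with that in mature OLGs by an interaction term in edgeR's quasi-likelihood fit, with the other class minus OLGs as the difference. Of 13 classes compared in this way, members were called in 2. In macrophages 7 members were called, where 1.24% of all genes were called higher: *Ermn* by 5.52, *Cldn11* by 5.03, *Mag* by 4.84, *Mal* by 4.84, *Mog* by 4.76, *Opalin* by 4.70 and *Mobp* by 3.48 on the log2 scale (adjusted p of 0.000235 to 0.00931 by edgeR). In choroid plexus epithelial cells 6 members differed, where 3.41% of all genes were called higher: *Mobp* by 1.44, *Cnp* by 1.35, *Mag* by 1.27, *Ermn* by 1.27, *Mog* by 1.25 and *Cldn11* by 1.25 (adjusted p of 0.0186 to 0.0386 by edgeR). Both classes were set against the same OLGs, and the macrophage values rest on 31 and 24 UMIs of the 9 genes in sham 1 and sham 2, with 352 in 2VO 1. *Opalin*, with 10 UMIs against 1 in both sham libraries, was tested there only because OLGs hold it, and its value, like those of *Ermn*, *Cldn11*, *Mag* and *Mog*, depends on the prior count and measures no size. In choroid plexus cells taken alone 0 of 9 members were called and their median log2 fold change was 0.039, beside -0.93 in OLGs.

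Barcodes with fewer than 650 genes held the 9 genes at 4652 CPM in 2VO 1 (1449 barcodes), against 3600 CPM in sham 1 (819 barcodes) and 1332 CPM in sham 2 (1516 barcodes). They entered no comparison but the alternative with at least 200 genes.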

How the results depend on the processing

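In mature OLGs, where no member was called, DESeq2's test called 6, no filter on low counts 7, removal of cells of high doublet score 2, barcodes with at least 200 genes 5, clustering with the members 4, a resolution of 2.0 gave 3 and thinning to 1000 UMIs 5. In the precursor stages, with 0 called, DESeq2's test called 1, no filter 9, doublet removal 12, at least 200 genes 7 and thinning 6. Of the 12, 8 were higher in resting OPCs (12.2% of all genes higher, 18.9% lower) and 4 lower in committed OPCs (3.49% and 3.85%). Of all genes in resting OPCs, 1571 were called higher and 2899 lower of 17557 with no filter. With at least 200 genes these were 1385 and 2255 of 12169, and after thinning 979 and 1540 of 9008. In committed OPCs they were 194 and 460 of 14743, 171 and 207 of 7503, and 105 and 23 of 1059. In the other classes, with 19 called, DESeq2's test called 0, no filter 38, doublet removal 65, at least 200 genes 12, clustering with the members 6 and thinning 33. Per class, no filter called 69 to 950 of all genes higher and 9 to 975 lower, of 12595 to 18874 tested. DESeq2's test called 0 to 76 and 0 to 588 of 2496 to 12805. Doublet removal gave 0 to 1198 and 0 to 901 of 2473 to 12663. At least 200 genes gave 0 to 443 and 0 to 501 of 3747 to 13007. Clustering with the members gave 0 to 252 and 0 to 671 of 3706 to 12823. Thinning gave 0 to 367 and 0 to 195 of 449 to 9845. Not all of the 19 and the 65 passed the low-count filter through a sham library. Of the 19, 2 of 7 did so in macrophages and 3 of 4 in glutamatergic neurons. Of the 65, it was 2 of 7 in macrophages, 0 of 6 in glutamatergic and 1 of 3 in Cajal-Retzius neurons. It was 3 of 7 in VLMCs, 4 of 8 in pericytes and 5 of 9 in vascular smooth muscle cells. Calls that passed through 2VO 1 alone carry no weight. Calls after doublet removal rest on a score that did not leave out the 9 genes. For genes outside the 9, the library through which they passed was not counted. In the clusters, with 16 called, DESeq2 size factors gave 7, DESeq2's test 10 and no filter 31. Of all genes in clusters 0, 2, 4, 7, 14, 15 and 25, size factors called 1, 0, 1, 3, 1, 364 and 8 lower. DESeq2's test gave 1, 43, 0, 0, 13, 177 and 4, and no filter 744, 183, 7, 2, 178, 658 and 272. Called higher were 1 to 161, 0 to 47 and 25 to 324 genes per cluster with these 3 settings. Tested were 6287 to 11539 genes per cluster, and 13635 to 16417 with no filter. Of the 16, 2 were higher in cluster 4, and 5, 5 and 4 were lower in clusters 14, 15 and 25. The cause of these changes was not tested.

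*Mag* in mature OLGs ran from -0.64 to 0.039 when a sham library was left out, and was 0.22 with cells weighted equally, 0.17 in cluster 7 and 0.39 in cluster 15. *Cldn11* ran from -0.90 to 0.20, and was 0.043 with cells weighted equally, 0.0056 in cluster 0 and 0.19 in cluster 15. With at least 200 genes, *Ermn* (-0.35), *Mal* (-0.78) and *Cnp* (-1.09) in glutamatergic neurons and *Mal* (-0.78) and *Cnp* (-0.046) in macrophages turned round, and so did *Mal* (-0.62) and *Cnp* (-0.25) in macrophages when clustered with the members. Of the other values compared, of single members and of summed levels, 276 were unchanged, 45 lost and 41 gained the call, and 18 moved. For values without a test, such as those with a sham library left out, unchanged refers to direction alone.

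No paired analysis was possible because 2VO and sham share only 1 replicate number among the libraries used. Leaving out a sham library leaves 1 against 1 and no test. Depth limits the 2VO library most, with 18754480 UMIs, and classes under 50 cells there give wide intervals.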
